A study of Danio rerio with 8 samples.

Results

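Zebrafish skin cells of clusters c1 and c3, both rich in iridophore transcripts, were compared gene by gene. Iridophores are the light-reflecting pigment cells of fish. Stacks of guanine crystals inside them reflect light, and guanine comes from purine synthesis, so iridophores are known for purine enzymes. In the adult flank they lie densely in the light interstripes and loosely in the dark stripes, next to black melanophores and yellow xanthophores. They also take part in patterning, because they touch one another through junctions and release signals to the other pigment cells. Cluster c1 held 194 cells and cluster c3 held 122, together 316 of the 646 cells that the authors clustered. The members of either cluster were taken from the cluster numbers in the deposited table and were not chosen again. By the study's account c3 came mostly from interstripe skin, whereas c1 came from both kinds of skin, with more of its cells from stripes.

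All cells came from the flank dermis of untreated adult zebrafish that carried pnp4a:palmmCherry and pnp4a:nlsEos, so that the promoter of the iridophore gene pnp4a drove both fluorescent reporters. Light interstripe skin and dark stripe skin were dissected and sorted separately into 4 plates each. Strain and exact age are not stated in the labels. By the methods, skin from more than 1 fish was pooled before sorting, in more than 1 processing cycle. How these cycles were divided between c1 and c3 cannot be read from the pooled values. The sort required both reporters, so the level of pnp4a itself was partly set by the gate.

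For each cluster and gene the deposited table gives how many percent of its cells expressed the gene at all (a value other than 0), together with the mean and SD within these expressing cells. A value of 0 means that the gene was not detected, which does not show that the cell lacked its transcript. Values are natural logs of a depth-corrected count, to which 1 was added. The mean over all cells is the share of cells times the mean of expressing cells, and every level and difference below is on this natural log scale. The table pools plates and fish within a cluster, and the clustering itself used the expression of these genes. There was thus no replicate to test with, and each difference is a description of these cells without a p-value. SDs are over cells and are not an error between fish. Intervals on a percent of cells are exact Clopper-Pearson 95% intervals, which cover counting error only.

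The iridophore genes gpnmb and pnp4a were found in most cells of both clusters. gpnmb, which encodes a glycoprotein of pigment organelles, was found in 177 of 194 c1 cells and 116 of 122 c3 cells. pnp4a, a purine nucleoside phosphorylase gene, was present in 79.4% of c1 cells (73.0 to 84.8%), against 82.8% of c3 cells (74.9 to 89.0%). Its mean was 2.91 ± 1.96 in c1, against 2.86 ± 1.87 in c3 (SDs over cells), a difference far smaller than the spread between cells of either cluster. Transcripts of the transcription factor gene tfec and of sox10, a neural crest regulator, were found in 17.5% and 23.2% of c1 cells, against 17.2% and 20.5% of c3 cells. Of the 5 iridophore markers of the study, 3 had a higher mean in c1 and 2 a lower mean. The lower ones were alx4a and gpnmb, with differences of -0.59 and -0.37, whereas alx4b lay 0.23 higher in c1. The study identified iridophores by these markers, so their values are no independent check of that label. ltk, a receptor kinase gene needed by iridophores, was found in only 7.22% of c1 cells and 4.10% of c3 cells.

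Of the marker lists of other cell types most members were scarce in both clusters, but a few were common. The melanophore genes tyrp1b and pmela were found in at most 2.58% of cells of either cluster, and dct in 2.58% of c1 cells and 9.02% of c3 cells. Among xanthophore genes, aox5 was found in 5.15% of c1 cells and 4.10% of c3 cells, and csf1ra in 1.03% and 2.46%, while pax7a, a paired box gene and the most frequent of the 12 xanthophore genes, was found in 11.3% of c1 cells and 21.3% of c3 cells, a difference in mean of -0.31. No gene of the immune, endothelial or erythrocyte lists reached 10% of cells in either cluster, and the highest share in these lists was 7.38%, for coro1a. The Schwann cell gene mpz was found in 7.73% of c1 cells and 2.46% of c3 cells. Summed over all measured members, the keratinocyte list had a level of 4.56 in c1 and 5.20 in c3, mostly from krt8 and from icn, which was found in 70.6% of c1 cells and 73.8% of c3 cells. The keratinocyte genes krt5 and epcam were found in at most 2.58% of cells. For the 16 dermal fibroblast genes the sums were 2.87 in c1 and 3.34 in c3. sparc, a matrix protein gene, was found in 36.1% of c1 cells and 31.1% of c3 cells, and thy1, a surface protein gene, in 27.3% and 37.7%, whereas col1a1a, col1a2 and dcn were found in at most 6.56% of cells of either cluster. Whether cells of these types took part in any difference below was not tested.

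The clusters differed a little in how many genes were detected. c1 cells had 788.8 genes detected on average and c3 cells had 846.1, where a gene counts as detected if its corrected value is above 0. The sum of all gene means was 1611.55 in c1 and 1696.37 in c3. Most genes were accordingly found in a smaller share of c1 cells. Of the 1598 genes that reached 10% of cells in c1, in c3 or in both, 983 (61.5%) had a lower share in c1, with a median difference of -1.99 percentage points. The part of this gap in the differences of single genes was not tested. Of the 1598 genes, 231 reached 10% only in c1, 262 only in c3, and 1105 in both.

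c1 and c3 were alike in most genes and differed by 0.5 or more in the mean of 42 genes, or 2.63% of those compared. The median difference over all 1598 genes was -0.028 and the SD over genes was 0.19, and 1390 genes (87.0%) lay within 0.25 of equal means. In 8 genes (0.501%) the mean was at least 0.5 higher in c1, and in 34 genes (2.13%) it was at least 0.5 higher in c3. Just outside these limits stood prelid3b, a mitochondrial lipid transfer gene, at 0.455 and arhgap36, a gene of the RhoGAP family, at -0.496. By share of cells the imbalance was greater, with 3 genes (0.188%) at least 15 percentage points higher in c1 and 53 (3.32%) at least 15 points higher in c3. With shares scaled to equal genes detected per cell, 4 genes were at least 15 points higher in c1 and 34 in c3. The plot of gene means shows the 42 genes on both sides of the diagonal, with most of those higher in c3 at low to middle levels.

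**Figure D1:**
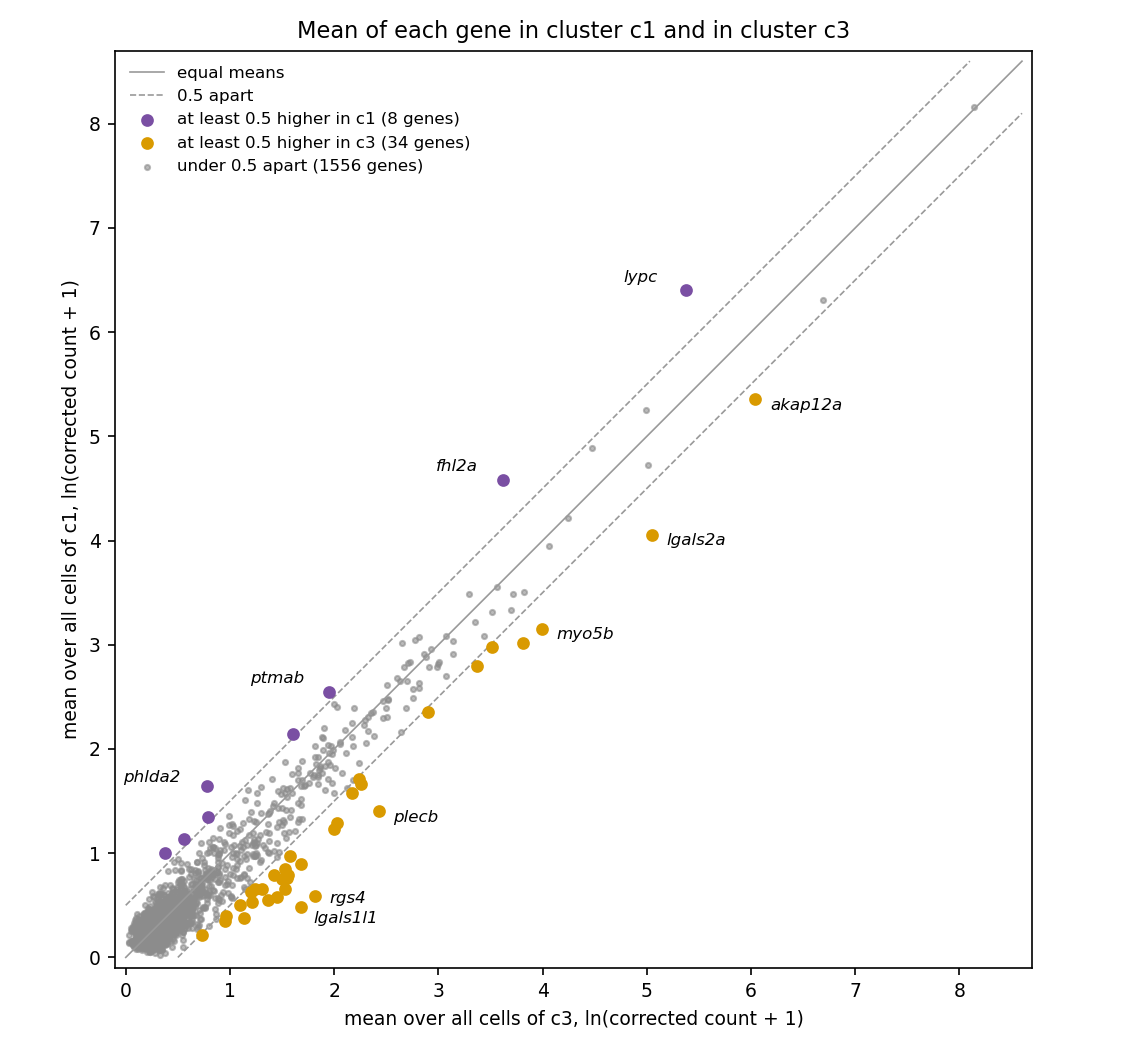
Mean over all cells of each of the 1598 genes in c1 (vertical axis) and c3 (horizontal axis), in natural log units. Each point is a gene, the solid line marks equal means and the dashed lines mark differences of 0.5. The 8 genes higher in c1 include lypc and fhl2a at high levels, and the 34 genes higher in c3 lie mostly below a c3 mean of 3.

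lypc and fhl2a carried the 2 largest differences toward c1, and both were found in nearly every cell of both clusters. lypc (ENSDARG00000097804), a gene of iridophore differentiation, was present in all 194 cells of c1 and all 122 cells of c3. Its mean was 6.40 ± 0.30 in c1 and 5.38 ± 0.60 in c3, a difference of 1.02. This was 2.32 pooled SDs over cells, and lypc was the only one of the 42 genes whose difference exceeded 1 pooled SD. fhl2a (ENSDARG00000042018), which encodes a LIM domain protein, was found in 91.8% of c1 cells and 92.6% of c3 cells. Its expressing cells had a mean of 5.00 in c1 and 3.90 in c3, and over all cells the means were 4.58 ± 1.93 and 3.62 ± 1.76. Its paralog fhl2b lay on the other side, in 18.6% of c1 cells (13.3 to 24.8%), against 32.0% of c3 cells (23.8 to 41.0%).

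The other genes higher in c1 were found in more c1 cells and also had higher levels in the cells that expressed them. phlda2, a growth gene that is imprinted in mammals, was found in 100 of 194 c1 cells (51.5%, 44.3 to 58.8%), against 39 of 122 c3 cells (32.0%, 23.8 to 41.0%). aqp1a.1, a water channel gene, was present in 35.1% of c1 cells (28.4 to 42.2%), against 17.2% of c3 cells (11.0 to 25.1%). The LIM domain gene crip1 was found in 45.4% of c1 cells (38.2 to 52.6%), against 29.5% of c3 cells (21.6 to 38.4%). These were the 3 genes whose share was at least 15 points higher in c1. Their differences in mean were 0.86, 0.62 and 0.56. gpm6ab, which encodes a membrane glycoprotein best known from neurons, was in 34.0% of c1 cells and 26.2% of c3 cells, and its expressing cells had a mean of 3.34 in c1 against 2.14 in c3. ptmab, a prothymosin gene whose product binds histones, had means of 2.55 ± 2.13 in c1 and 1.95 ± 1.97 in c3. trpm1b, a cation channel gene of pigment cells, had means of 2.15 ± 1.88 in c1 and 1.60 ± 1.72 in c3. For the 7 genes other than lypc the difference was 0.29 to 0.52 pooled SDs, so single cells of c1 and c3 overlapped widely. trpm1b was also the only 1 of 14 measured melanophore genes that reached 10% of cells.

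The gene with the largest difference encodes a regulator of G protein signalling. These proteins speed up GTP hydrolysis by G protein alpha subunits and so shorten signals from receptors. rgs4 (ENSDARG00000070047) led all 1598 genes in the size of its difference, and was found in 33 of 194 c1 cells (17.0%, 12.01 to 23.1%), against 65 of 122 c3 cells (53.3%, 44.0 to 62.4%). Its means were 0.59 ± 1.40 in c1 and 1.81 ± 1.93 in c3, a difference of -1.23 or -0.75 pooled SDs. Cells with rgs4 detected had it at about the same level, 3.45 in c1 and 3.40 in c3. The difference thus lay in the share of cells with detection. Of 22 measured members of the list, 4 passed the 10% filter. rgs8 passed it through c3 only, so the filter favoured a lower mean in c1 for this gene. Each of these 4 was lower in c1, as were 916 of all 1598 genes. Their median difference was -0.38, against -0.028 over all genes compared. Without the member that reached 10% only in c3, the median was -0.40. rgs4 alone of the 4 differed by 0.5. rgs3a was found in 12.9% of c1 cells and 25.4% of c3 cells, rgs16 in 16.5% and 28.7%, and rgs8 in 6.70% and 13.9%. The G protein subunit genes themselves were close to equal. Of 38 measured, 6 were in at least 10% of cells, none differed by 0.5, and their median was 0.006.

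Galectin genes showed the next largest gap. Galectins are secreted proteins that bind galactose-containing sugars on cell surfaces and matrix. lgals1l1 (ENSDARG00000088711) was found in 34 of 194 c1 cells (17.5%, 12.5 to 23.6%), against 62 of 122 c3 cells (50.8%, 41.6 to 60.0%), with means of 0.49 ± 1.25 and 1.68 ± 2.01. lgals2a (ENSDARG00000054942) was nearly universal, in 90.7% of c1 cells and 96.7% of c3 cells, and differed in level, with an expressing-cell mean of 4.47 in c1 and 5.22 in c3. The third galectin gene compared, lgals3a, had means of 0.25 ± 0.79 in c1 and 0.33 ± 0.96 in c3. lgals3b was under the limit of 10% in both clusters, in 8.76% of c1 cells and 3.28% of c3 cells. All 3 galectin genes compared thus had lower means in c1, as did 916 of all 1598 genes, but lgals3a only slightly. lgals1l1 and lgals2a are direct neighbours in the RefSeq gene order of the assembly GRCz12tu, and the counting of reads that both could share was not tested. Of 41 genes among the 42 that could be placed in that order, 1 further pair lay within 5 genes of each other, akap12a and syne1b.

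Among genes of junctions and cell contact, tjp1a was at least 0.5 higher in c3 and jam3b nearly so. tjp1a (ENSDARG00000077506), which encodes the tight junction scaffold ZO-1, was found in 38 of 194 c1 cells (19.6%, 14.2 to 25.9%), against 54 of 122 c3 cells (44.3%, 35.3 to 53.5%). Its means were 0.53 ± 1.28 in c1 and 1.21 ± 1.59 in c3, while its expressing cells had 2.71 and 2.73. jam3b, a junctional adhesion molecule gene, was present in 23.7% of c1 cells (17.9 to 30.3%), against 43.4% of c3 cells (34.5 to 52.7%), a difference in mean of -0.48. Of 121 measured members of the junction and adhesion list, 12 were compared, 11 of them had lower means in c1, as did 916 of all 1598 genes, and 1, tjp1a, differed by 0.5. The median was -0.17 against -0.028 over all genes compared. Among the others, the adhesion molecule gene alcama was found in 21.6% of c1 cells and 33.6% of c3 cells, and the integrin gene itga6b in 70 of 194 c1 cells and 61 of 122 c3 cells. cldn17, a claudin gene, was found in 193 c1 cells and all 122 c3 cells, with means of 2.58 ± 0.85 and 2.76 ± 0.88. tjp1b, the paralog of tjp1a, was found in 10.3% of c1 cells and 12.3% of c3 cells.

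Some genes of cytoskeletal linkers and 2 myosin genes were also at least 0.5 higher in c3. plecb, a plectin gene whose product ties intermediate filaments to junctions and actin, was found in 49.0% of c1 cells (41.7 to 56.2%), against 68.9% of c3 cells (59.8 to 76.9%), with means of 1.40 ± 1.80 and 2.43 ± 1.98. Its paralog pleca differed by only 0.06 in mean. syne1b, a nesprin gene of the nuclear envelope, was found in 28.9% of c1 cells and 55.7% of c3 cells, and krt8, a keratin gene, had means of 2.36 ± 1.77 in c1 and 2.90 ± 1.75 in c3. With plecb these were 3 of 7 genes compared from the intermediate filament and plectin list, of 39 measured. Of all 1598 genes, 34 (2.13%) were at least 0.5 higher in c3. The nesprin gene syne1b is on that list though it is neither a filament nor a plectin gene, and the list was written with earlier results known. krt18, the usual partner of krt8, had means of 0.67 ± 1.41 in c1 and 0.56 ± 1.24 in c3. myo5b, which encodes a class V myosin that moves vesicles, was expressed in 81.4% of c1 cells (75.2 to 86.7%), against 95.1% of c3 cells (89.6 to 98.2%). It was the only motor gene 0.5 apart among 15 compared of 96 measured, of which 8 were higher and 7 lower in c1, with a median of 0.0005. myh10, a non-muscle myosin II gene, was present in 33.0% of c1 cells (26.4 to 40.1%), against 54.9% of c3 cells (45.7 to 63.9%). Actin and myosin genes as a list differed little, with a median of -0.086 over 36 genes compared of 91 measured, and fhl2a and myh10 were the only members 0.5 apart, on opposite sides. Tubulins and microtubule regulators had 0 of 8 compared genes 0.5 apart, of 47 measured.

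Further genes at least 0.5 higher in c3 encode secreted, channel or membrane proteins, a grouping made after their values were seen. csf1a, a ligand of the receptor that xanthophores need in zebrafish, was found in 53 of 194 c1 cells (27.3%, 21.2 to 34.2%), against 64 of 122 c3 cells (52.5%, 43.2 to 61.6%). serpine2, an inhibitor of serine proteases, was found in 19.6% of c1 cells (14.2 to 25.9%), against 49.2% of c3 cells (40.02 to 58.4%). cst3, the cystatin C gene, was present in 20.1% of c1 cells (14.7 to 26.4%), against 49.2% of c3 cells (40.02 to 58.4%). sema3fa, a semaphorin gene, was found in 9.79% of c1 cells and 27.9% of c3 cells. The water and glycerol channel gene aqp3b was found in 10.8% of c1 cells (6.83 to 16.1%), against 35.2% of c3 cells (26.8 to 44.4%), opposite in direction to aqp1a.1. vapal, which encodes a protein of contacts between the endoplasmic reticulum and other membranes, was in 26.8% of c1 cells and 54.1% of c3 cells. sytl2b, a Rab effector gene of vesicle docking, was in 80.9% and 92.6%, and cavin1b, a caveola coat gene, in 24.2% and 42.6%. Of the genes linked to pigment patterning, 24 were measured and 7 compared. aqp3b and tjp1a were at least 0.5 lower in c1, jam3b lay just inside the limit, and tspan36, sox10, aqp3a and paics lay within 0.20 of equal means. Of all 1598 genes, 34 (2.13%) were at least 0.5 lower in c1. This list, too, was written with earlier results known.

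The retinol dehydrogenase genes rdh5 and rdh10a went in opposite directions, though only rdh5 differed by 0.5. These enzymes interconvert retinol and retinaldehyde, the first step toward retinoic acid and a step of the visual cycle. rdh5 (ENSDARG00000008306) was found in 38 of 194 c1 cells (19.6%, 14.2 to 25.9%), against 60 of 122 c3 cells (49.2%, 40.02 to 58.4%). Its means were 0.58 ± 1.301 in c1 and 1.45 ± 1.68 in c3. Its expressing cells had 2.96 and 2.95, so here too only the share of cells with detection differed. rdh10a (ENSDARG00000058730) was found in 18.6% of c1 cells (13.3 to 24.8%), against 9.02% of c3 cells (4.59 to 15.6%), with means of 0.56 ± 1.26 and 0.22 ± 0.86. It reached 10% of cells only in c1, so the filter favoured a higher mean there for this gene. crabp2a, which encodes a binding protein for retinoic acid, was found in 20.1% of c1 cells (14.7 to 26.4%), against 12.3% of c3 cells (7.05 to 19.5%). These 3 were all of the 32 measured retinoid genes that reached 10% of cells in either cluster, and rdh5 alone differed by 0.5.

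Signalling and gene regulation gave further single genes higher in c3. wnk1b, a kinase gene of ion transport, was found in 26.3% of c1 cells (20.2 to 33.1%), against 55.7% of c3 cells (46.5 to 64.7%). calm3a, a calmodulin gene, was present in 29.4% of c1 cells (23.1 to 36.3%), against 50.8% of c3 cells (41.6 to 60.0%), while calm1a, calm2a and calm3b lay 0.20, 0.28 and 0.13 higher in c1. Calmodulin genes are closely alike in sequence, a second feature is also named calm3a, and how reads were divided among them is uncertain. akap12a, whose product tethers protein kinase A, was found in 191 c1 cells and all 122 c3 cells, with means of 5.36 ± 1.38 and 6.04 ± 0.92. Its paralog akap12b had means of 2.40 ± 1.94 in c1 and 2.02 ± 1.88 in c3. sik1, a kinase gene induced by cyclic AMP, was found in 33.0% of c1 cells and 23.0% of c3 cells, and adra2b, an alpha-2 adrenergic receptor gene, in 8.25% and 15.6%. adra2b reached 10% of cells only in c3, so the filter favoured a lower mean in c1 for this gene. Of 67 measured genes of cyclic AMP and adrenergic signalling, 9 were compared. akap12a was the only member 0.5 apart, against 2.63% of all genes compared. The list median was -0.044, but 0.17 over members in 10% of cells of both clusters. The homeobox gene alx4a was found in 55.2% of c1 cells (47.9 to 62.3%), against 72.1% of c3 cells (63.3 to 79.9%), whereas alx4b had means of 1.13 ± 1.64 in c1 and 0.90 ± 1.39 in c3.

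The remaining genes at least 0.5 higher in c3 were sncga, tsc22d2, zgc:110699, rbm24a, tmem255a, SYNPR, ponzr1, rpl19, lhfpl2b, fmn2a, prx and eif1b. Their differences in mean lay between -0.53 and -0.77. None was on the gene lists apart from the ribosomal protein gene rpl19 and the initiation factor gene eif1b. SYNPR, a synaptic vesicle protein gene, had the largest gap in share among them, in 23.7% of c1 cells (17.9 to 30.3%), against 49.2% of c3 cells (40.02 to 58.4%). A further 27 genes differed by at least 15 points in share without a difference of 0.5 in mean. zfhx4, a zinc finger homeobox gene, was found in 38.1% of c1 cells and 59.8% of c3 cells, and wnt11r, a Wnt ligand gene, in 24.7% and 41.8%. boka, a gene of the Bcl-2 family, was found in 5.15% of c1 cells (2.499 to 9.28%), against 20.5% of c3 cells (13.7 to 28.7%). The plot of shares shows that the 5 widest gaps, those of rgs4, lgals1l1, serpine2, rdh5 and wnk1b, all lay in genes that 49.2 to 55.7% of c3 cells expressed.

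**Figure D2:**
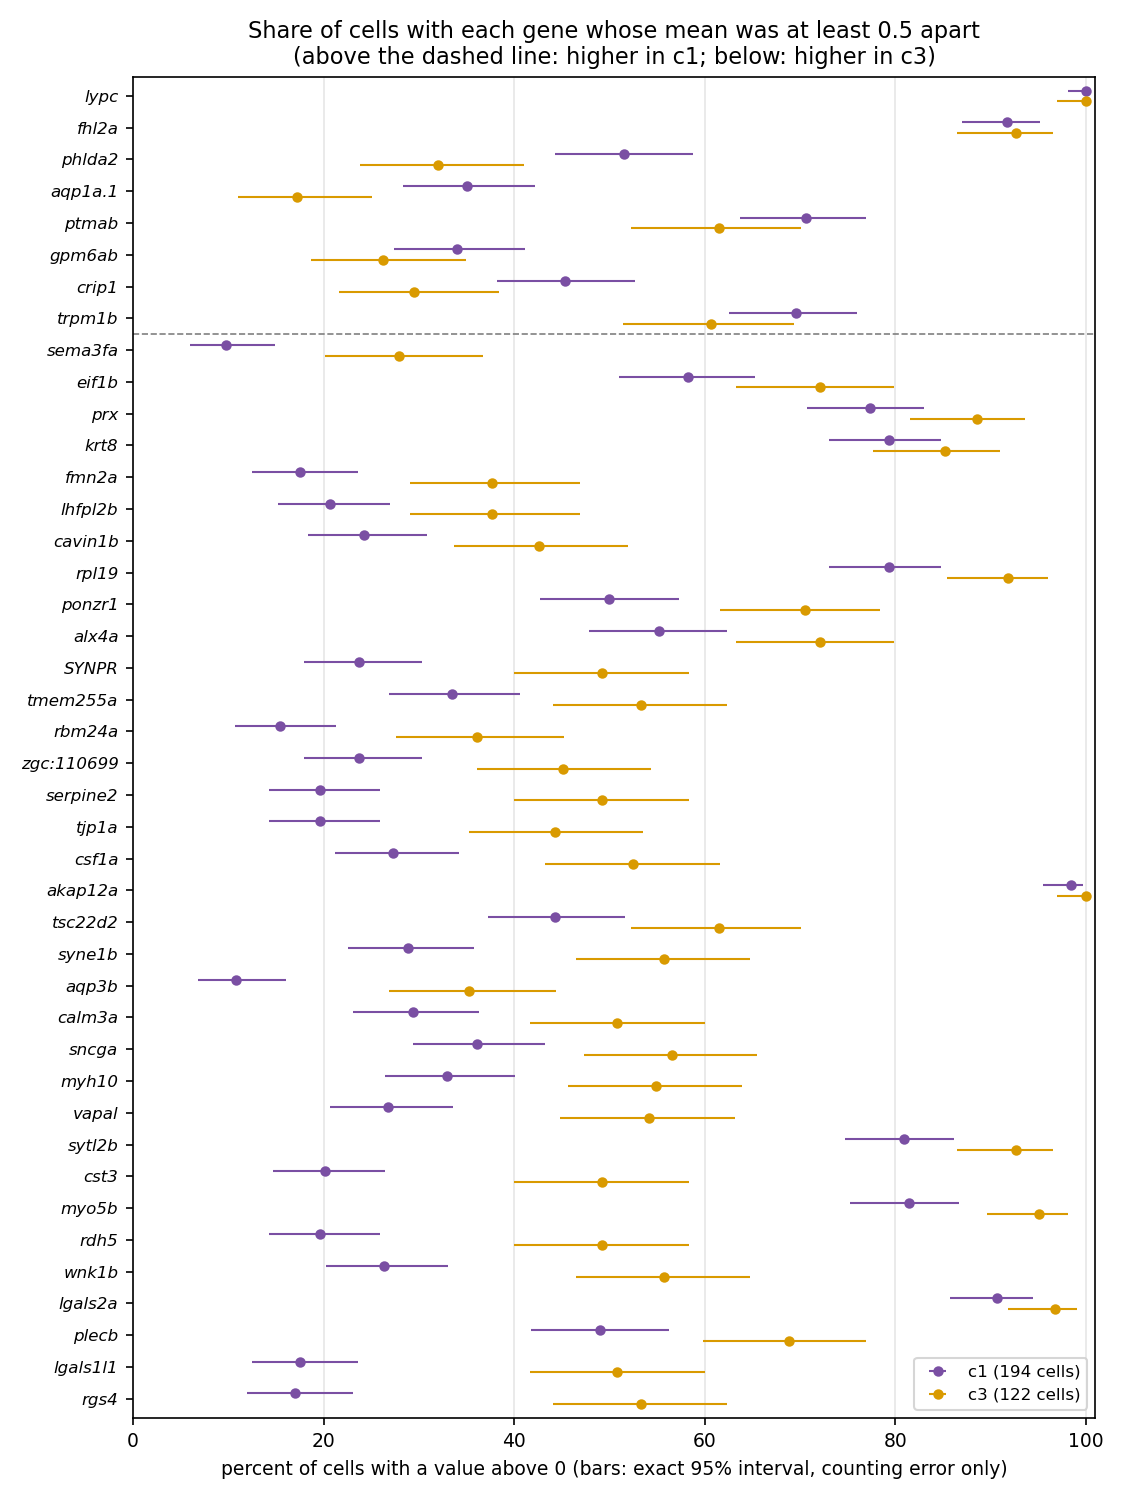
Share of expressing cells in percent for the 42 genes whose means were at least 0.5 apart, in c1 (194 cells, upper point of each row) and c3 (122 cells, lower point). Points are shares and bars are exact 95% intervals for counting error. For rgs4 at the bottom the shares are 17.0% in c1 and 53.3% in c3, while lypc at the top is at 100% in both.

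The share of cells carried most of the genes higher in c3, whereas the genes higher in c1 were divided. Each difference in mean was split exactly into a part from the share of cells, weighted by the average expressing-cell mean of both clusters, and a part from the level in expressing cells, weighted by the average share. For the 34 genes higher in c3 the share part made up 84.2% of the summed difference, and it was the larger part in 31. The 3 exceptions were lgals2a, akap12a and krt8. For the 8 genes higher in c1 the share part made up 37.9% of the summed difference, and it was the larger part in 4 (phlda2, aqp1a.1, crip1 and ptmab). That percentage rests largely on lypc and fhl2a, whose level parts were 1.02 and 1.01 of a summed level part of 3.57. Over all genes compared, shares also tended to be lower in c1, with a median difference of -1.99 points. Expressing-cell means tended to be higher there, with a median difference of 0.13. All 8 genes higher in c1 had a higher expressing-cell mean in c1. So did 7 of the 34 genes with a higher mean over all cells in c3, among them serpine2, with 3.33 in c1 and 2.67 in c3. The plot of both parts shows lypc and fhl2a at or near the level axis and rgs4 near the share axis.

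**Figure D3:**
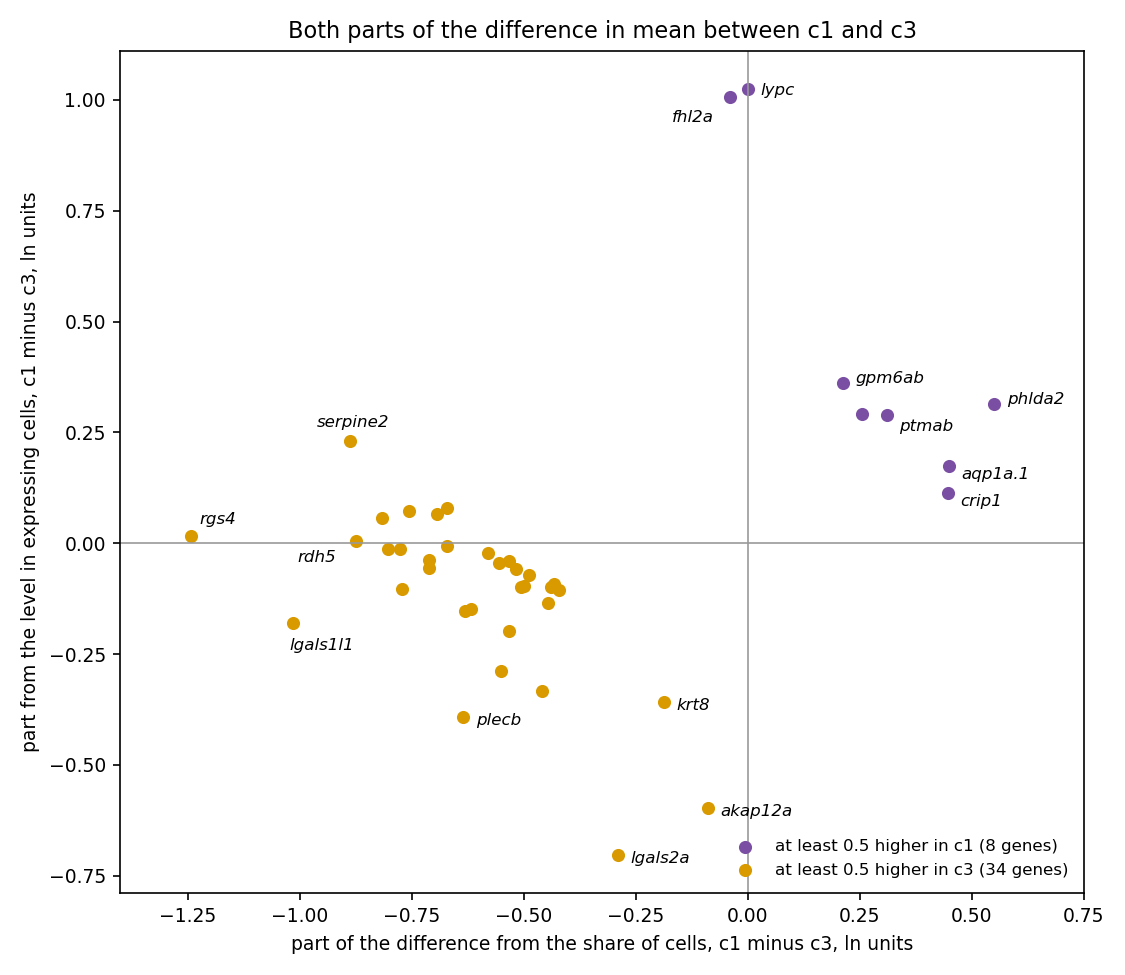
Part of the difference in mean from the share of cells (horizontal axis) and from the level in expressing cells (vertical axis), c1 minus c3 in natural log units, for the 8 genes higher in c1 and the 34 genes higher in c3. Both parts add up to the difference. rgs4 lies at a share part of -1.24 and a level part of 0.02, and lypc at 0 and 1.02.

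Over more genes, shares were lower and expressing-cell means higher in c1 by their medians, though not at every share of cells. Of the 805 genes with at least 20 expressing cells in each cluster, 538 (66.8%) had a higher expressing-cell mean in c1, with a median difference of 0.13. The expressing-cell mean was at least 0.5 higher in c1 for 75 of them (9.32%) and at least 0.5 higher in c3 for 14 (1.74%). With the differences centred on their median these counts were 38 and 40. Centring removes a shift shared by most genes by construction, so these counts do not test the imbalance. Only 5 of the 75 and 4 of the 14 also had means over all cells 0.5 apart in that direction. By share in the higher cluster, the median difference in share was -0.90 points for 1093 genes at 10 to 25% and -6.10 points for 120 genes at 50 to 75%. In the 32 genes at 90 to 100% the median difference in expressing-cell mean was -0.11, opposite in sign to the other bands.

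Among expressing cells the largest gaps toward c1 were in gpm6ab (1.199), fhl2a (1.09), zfp36l1b (1.03), lypc (1.02) and hist2h2l (1.01). zfp36l1b, which encodes a protein that binds AU-rich messages for decay, had an expressing-cell mean of 2.96 in 44 c1 cells and 1.93 in 21 c3 cells. hist2h2l is a histone gene with near-identical copies, so its value is uncertain. Toward c3 the largest gaps were in si:ch73-335l21.4 (-0.79), lgals2a (-0.75), acbd3 (-0.75), plecb (-0.67) and palm2 (-0.63). acbd3, a Golgi protein gene, had an expressing-cell mean of 1.92 in 27 c1 cells and 2.66 in 24 c3 cells. Where only about 20 cells per cluster expressed a gene, few cells decided its level.

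Genes of purine synthesis and salvage, the source of guanine, lay slightly higher in c1 by their median. Of 43 measured, 14 were compared. Of these 14, 11 had a higher mean in c1, whereas 916 of all 1598 genes had a lower mean there. None of the 14 differed by 0.5, against 2.63% of all genes compared. The median difference was 0.17 against -0.028 over all genes compared. It was 0.12 over members in 10% of cells of both clusters, and 0.046, the value of pnp4a itself, over the members found in 25% of cells. Some members, such as adka and mthfd1l (9.84% of c3 cells), reached 10% only in c1, so the filter favoured a higher mean there. adka, the adenosine kinase gene, was present in 20.6% of c1 cells (15.2 to 27.0%), against 8.20% of c3 cells (4.001 to 14.6%). atic, which encodes the enzyme of the last steps to IMP, was found in 21.1% of c1 cells (15.6 to 27.6%), against 16.4% of c3 cells (10.3 to 24.2%), with expressing-cell means of 2.89 and 2.06. gmps, the GMP synthetase gene, was present in 32.5% of c1 cells (25.9 to 39.6%), against 22.1% of c3 cells (15.1 to 30.5%). paics and mthfd1l lay 0.19 and 0.24 higher in c1. The 3 members with a lower mean in c1 were ppat, mthfd2 and shmt1, each within 0.04 of c3. The largest of these differences, that of adka, was 0.30 pooled SDs.

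Lists of organelle and housekeeping genes had medians from -0.22 for collagens to 0.20 for lipid carriers, against -0.028 over all genes compared. Oxidative phosphorylation had a median of 0.035 over 43 genes and cytosolic ribosomal proteins -0.034 over 76, where rpl19 was the only member 0.5 apart. Translation factors had a median of -0.055 over 36 genes, with eif1b 0.5 apart. Vacuolar ATPase subunits, which acidify organelles, had a median of 0.082 over 8 genes, and 6 of the 8 were higher in c1. Cathepsin and lysosome membrane genes had a median of -0.071 over 8, and 7 of the 8 were lower in c1, led by the protease gene ctsd in 12.4% of c1 cells and 25.4% of c3 cells. Proteins of lysosome-related organelles, the class that holds pigment granules, had a median of -0.034 over 17 genes, with myo5b 0.5 apart. Only gpnmb and myo5b among them reached 25% of cells, and the median of this pair was -0.60. All 4 collagen genes compared, col4a1, col4a2, col5a1 and col5a2a, were lower in c1. Their median was -0.22, and -0.16 over those in 10% of cells of both clusters. All 4 lipid carrier genes compared were higher in c1, with a median of 0.20, and apoda.1, an apolipoprotein D gene, was the most abundant of them. Among them apoeb reached 10% only in c1, in 12.9% of c1 cells and 5.74% of c3 cells. Over those in 10% of cells of both clusters the median was 0.18. Glycolysis had 7 of 9 genes lower in c1 and a median of -0.11, but of -0.0096 over members in 10% of cells of both clusters. A member that reached 10% in only 1 cluster was favoured toward that cluster by the filter, so these list counts lean on it. Over all genes compared, 916 of 1598 had lower means in c1. None of the vacuolar ATPase, cathepsin, collagen, lipid carrier or glycolysis genes was 0.5 apart.

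Genes of calcium-binding proteins were divided. Of 29 measured annexin, S100 and calmodulin genes 18 were compared, 9 on either side, and calm3a alone was 0.5 apart. The annexin gene anxa1a was present in 66.5% of c1 cells (59.4 to 73.1%), against 83.6% of c3 cells (75.8 to 89.7%). anxa2a was found in 97 of 194 c1 cells and 80 of 122 c3 cells, and anxa3b in 42.8% and 55.7%. Each of these 3 annexins had nearly the same expressing-cell mean in both clusters, with differences of 0.10, 0.02 and -0.08. By contrast s100v2, anxa13 and anxa5b lay 0.30, 0.12 and 0.17 higher in c1. Rab GTPases, the proteasome, splicing factors and solute carriers had no gene 0.5 apart among 14, 11, 23 and 17 compared.

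Immediate early genes, which are transcribed soon after a stimulus, are read here because tissue dissociation is known to induce them. Of 61 measured, 26 were compared, and 18 of them had lower means in c1, as did 916 of all 1598 genes. None differed by 0.5, against 2.63% of all genes compared, and the median was -0.094 against -0.028. fosb was found in 29.9% of c1 cells (23.5 to 36.9%), against 45.1% of c3 cells (36.1 to 54.3%). gadd45ba was found in 32.0% (25.5 to 39.0%) and 43.4% (34.5 to 52.7%). The other 8 members had higher means in c1. Among these were sik1, whose difference of 0.42 was the largest on the list, and zfp36l1b, with a difference of 0.34. Chaperone and heat shock genes had a median of -0.073 over 18 genes and none 0.5 apart. Whether handling of the skin took part in these values was not tested.

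**Figure D4:**
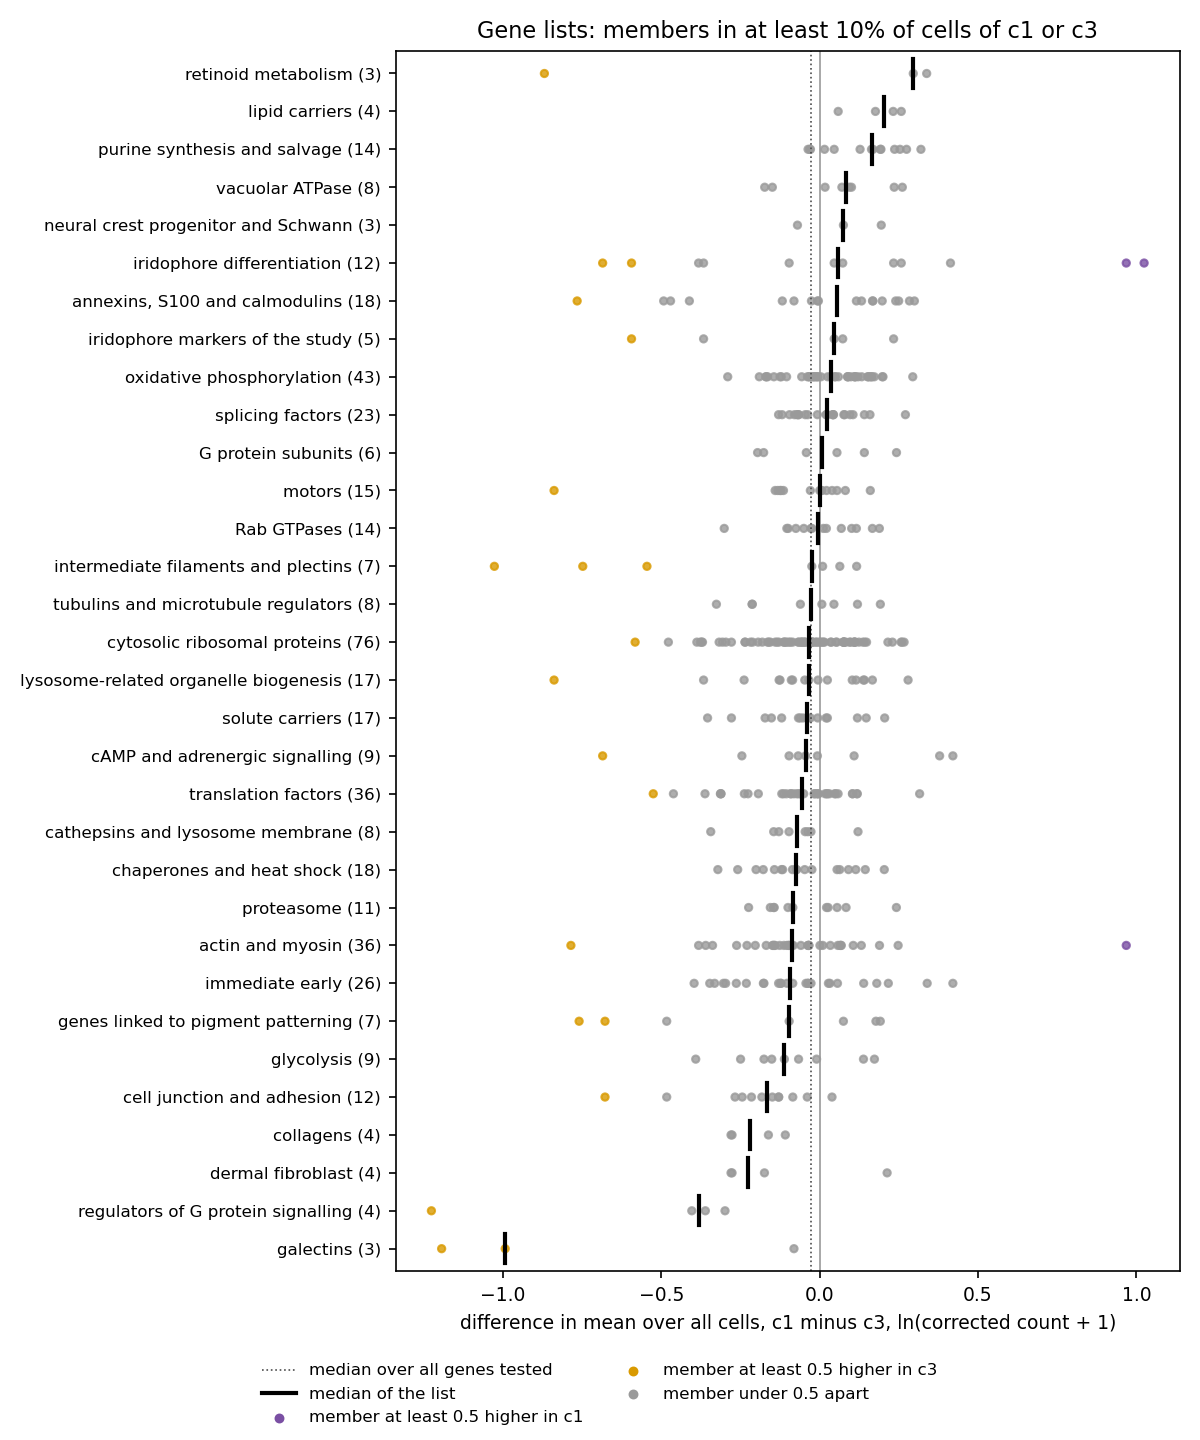
Difference in mean over all cells, c1 minus c3 in natural log units, for each gene list with at least 3 members in 10% or more of cells. Each point is a gene, black bars are list medians, the number of genes is in brackets and the dotted line is the median of all 1598 genes at -0.028. Galectins and regulators of G protein signalling have the lowest medians, -0.99 over 3 genes and -0.38 over 4, and that of galectins is -0.54 with genes in 5% of cells included.

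A core of genes was shared in nearly every cell. In at least 95% of cells of both clusters 14 genes were found, and 3 of them in every cell. Only lypc and akap12a among these differed by 0.5, in opposite directions. defbl1, a beta-defensin-like gene that marks iridophores, had means of 4.89 ± 1.36 in c1 and 4.47 ± 1.09 in c3, and apoda.1 had 5.25 ± 1.15 and 5.00 ± 1.15. The actin gene actb2 had 3.95 ± 1.63 in c1 and 4.06 ± 1.51 in c3, and the ribosomal protein gene rplp0 had 4.22 ± 1.63 and 4.25 ± 1.57. A feature named from the mitochondrial genome was in every cell at 8.16 ± 0.46 in c1 and 8.14 ± 0.42 in c3, although the methods describe such features as removed. The 12 genes of iridophore differentiation that were compared, of 18 measured, were split, with a median of 0.06. Of these, lypc and fhl2a were at least 0.5 higher in c1, and akap12a and alx4a at least 0.5 higher in c3. Of all 1598 genes, 42 (2.63%) were at least 0.5 apart either way. The list was written with earlier results known.

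The third iridophore-rich cluster, c5, held 72 cells, mostly from stripes by the study's account, and shares no cells with c1 or c3. rgs4 was found in 2.78% of c5 cells (0.338 to 9.68%), rdh5 in 2.78% and tjp1a in 2.78%, each below its share in c1 and in c3. phlda2 was found in 54 of 72 c5 cells and aqp1a.1 in 47.2%, each above its share in c1 and in c3. lypc was different, with a mean of 5.75 ± 0.83 in c5, between 6.40 in c1 and 5.38 in c3. lgals1l1 was found in 4.17% of c5 cells and csf1a in 27.8%, against 27.3% of c1 cells. rgs16 was found in 0 of 72 c5 cells, where 3 cells, the limit used for a count of 0, would be 4.17%, against 16.5% of c1 cells and 28.7% of c3 cells.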

How the data were processed

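Single cells from 4 light (interstripe) and 4 dark (stripe) plates were sequenced with unique molecular identifiers. The submitters' processing notes name bcl2fastq 2.20, STAR and the build GRCz11. By the methods, the authors filtered cells, normalized counts with SCTransform and clustered the cells in Seurat. The raw depth of each cell was not used here.

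The deposited table gives 19914 features in 5 clusters. For each cluster the authors' values are the cell number, the percent of cells expressing a gene, and their mean and SD on a natural log scale, after 1 was added to the corrected count. A second deposited table, with the authors' fold changes and p-values of c5 against c3, was not used. Symbols are those of the table, and 18929 identifiers were found in the reference names.

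Cell numbers were recovered from the percents, and means and SDs over all cells were rebuilt with cells lacking the gene at 0 (Python 3.11.15, numpy 2.4.6, pandas 2.3.3). Exact 95% intervals came from scipy 1.17.1. For a share of 0 the limit is that of 3 cells. Genes were compared if c1 or c3 had them in at least 10% of cells. Differences of 0.5 in mean, 15 points in share and 0.5 in expressing-cell mean (at least 20 expressing cells in each cluster) were counted. The calculation was tested on simulated data. Alternatives were other filters, sizes, minimum cell numbers, centring, and shares scaled to equal genes detected.

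The clusters, the 41 gene lists and the rule for named genes were chosen with earlier results of these data known. The rule takes the 12 largest differences in mean each way, the 5 largest in share and in expressing-cell mean each way, genes the study names, and up to 4 members of each list. Other genes at least 0.5 or 15 points apart, the immune gene coro1a, the remaining members of short lists and the paralogs of named genes were named after their values were seen.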

Additional observations from a re-analysis of the deposited data

How the results depend on the processing

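The counts of genes 0.5 apart in mean were 8 higher in c1 under each filter tried and 33 or 34 higher in c3. Filters up to 25% of either cluster could hardly change them. Genes higher in c1 were in at least 34.0% of c1 cells, and genes higher in c3 in at least 27.9% of c3 cells. Centring on the median left 8 and 32. Size mattered more. At a difference of 0.3 there were 41 genes higher in c1 and 103 higher in c3, and at 1.0 there were 1 and 3. In share of cells, 17 genes were higher in c1 and 146 in c3 at 10 points, and 0 and 23 at 20 points. After shares were scaled to equal genes detected, 4 were higher in c1 and 34 in c3 at 15 points. For expressing-cell means the counts were 152 in c1 and 92 in c3 with 10 expressing cells required, and 22 and 4 with 40. After centring they were 38 and 40, where the excess toward c1 was lost because centring removes a shared shift by construction. Read by expressing cells, 7 of 34 genes higher in c3 turned round, to 0.67 for serpine2, 0.24 for aqp3b, 0.19 for zgc:110699, 0.18 for csf1a, 0.13 for ponzr1, 0.05 (0.0461) for rgs4 and 0.02 (0.0161) for rdh5. Some short lists moved with the filter. At 25% of cells few members of these lists remained. The median of cyclic AMP genes was then 0.38 (akap12a, akap12b and sik1) and that of retinoid genes -0.87 (rdh5 alone). In 10% of both clusters these were 0.17 and -0.29. At 25% the median was also -0.65 for intermediate filament and plectin genes, among them plecb, syne1b and krt8. It was -0.68 for patterning genes (aqp3b, tjp1a and jam3b) and -0.60 for lysosome-related organelles (gpnmb and myo5b). For purine genes it was 0.046, the value of pnp4a itself. In 10% of both clusters the median was 0.12 for purine genes and -0.0096 for glycolysis. At 5% it was -0.54 for galectins and -0.009 for retinoid genes. No paired analysis was possible because the table pools all plates within a cluster and the light and dark plates share no numbers. Leaving out a plate was not run for the same reason, and the spread between fish was not measured.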
